A study of Mus musculus with 4 samples.

Results

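The calcineurin, Rcan and NFAT genes were examined for acetylation of histone H3 at lysine 27 (H3K27ac), a mark of active promoters and enhancers, in dystrophic mouse hearts. The 10 genes were *Rcan1*, *Rcan2*, *Rcan3*, *Ppp3ca*, *Ppp3cb*, *Ppp3r1*, *Nfatc1*, *Nfatc2*, *Nfatc3* and *Nfatc4*, out of 21418 protein-coding genes on the 19 autosomes. They were chosen by name, as parts of 1 pathway. A region was counted for a gene when its centre lay in the gene body or in the 20 kb upstream of it (mm9, GENCODE vM1), and this window is used throughout. The windows held 6 of the 12566 listed regions of *mdx* IKKβf/f hearts and 13 of the 22981 listed regions of *mdx* HRTΔIKKβ hearts.

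Both groups were male *mdx* mice, which lack dystrophin, at 7 months of age, and both carried floxed IKKβ (IKK[beta]f/f). IKKβ is the kinase that switches on NF-κB. The *mdx* HRTΔIKKβ mice also carried Cre recombinase under the Myh6 promoter (Myh6-cre;IKK[beta][delta]), so that IKKβ was deleted in cardiomyocytes, while the other cells of the heart kept it. The controls were age-matched littermates without Cre. Whole hearts were used, and how many hearts went into a library is not given in the sources used here. Since the hearts were not sorted, a change in the number of cells of a type and a change in acetylation per cell cannot be told apart. Each genotype had 1 H3K27ac library and 1 input library (chromatin sequenced without antibody). No difference between genotypes could therefore be tested against the spread between hearts, and every interval below covers counting error only.

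Calcineurin is a phosphatase that is switched on by calcium and calmodulin. It removes phosphate from the NFAT transcription factors, which then enter the nucleus and turn on genes of cardiac growth, and the Rcan proteins bind calcineurin and restrain it. *Rcan1* is itself a target of NFAT. It has an upstream start site and an internal one, and NFAT acts on the internal start, so that the short isoform is widely used as a readout of calcineurin activity in the heart.

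The depth of ChIP was 57852347 tags in *mdx* IKKβf/f hearts and 62458751 tags in *mdx* HRTΔIKKβ hearts, and listed regions took up 0.71% and 1.26% of these tags. A window of 500 bp was called from 29 tags in *mdx* IKKβf/f (2.005 times the tags the caller expected) and from 30 tags in *mdx* HRTΔIKKβ (1.921 times). Genes that define cardiomyocytes carried about as many regions as their length predicts, 5 against 4.72 expected in *mdx* IKKβf/f and 10 against 8.43 with *mdx* HRTΔIKKβ. Of 10 such genes 3 held a region in each list (2.64 and 3.77 expected), none of them within 3 kb of the gene's own start site, and *Myh6*, *Actc1*, *Tnnt2*, *Actn2*, *Nkx2-5* and *Myl2* held none in either list. Of genes that mark other cells of the heart, 3 of 6 fibroblast, 0 of 5 endothelial and 3 of 5 leukocyte genes held a region in *mdx* IKKβf/f, where 1.28, 1.89 and 1.64 would by length. In *mdx* HRTΔIKKβ 2, 3 and 3 did, where 2.11, 2.8 and 2.56 would. Whether a different mix of cells plays a part in the counts below was not tested.

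The sequences under 3 of the regions are shown here. Those of *Rcan1* are shown because this gene is set against the rest of the pathway, and that of *Nfatc2* because it had the highest fold over input. Each line is the central 300 bases of the region on the plus strand of mm9, with matches to the NFAT core GGAAA, or to its reverse complement TTTCC, in capitals.
*Rcan1*, *mdx* IKKβf/f, chr16:92463820-92464119: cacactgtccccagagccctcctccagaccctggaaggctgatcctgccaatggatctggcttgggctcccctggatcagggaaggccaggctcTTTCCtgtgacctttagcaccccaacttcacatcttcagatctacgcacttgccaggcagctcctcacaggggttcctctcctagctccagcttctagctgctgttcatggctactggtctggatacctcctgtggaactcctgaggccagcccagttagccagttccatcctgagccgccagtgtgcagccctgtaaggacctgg
*Rcan1*, *mdx* HRTΔIKKβ, chr16:92449507-92449806: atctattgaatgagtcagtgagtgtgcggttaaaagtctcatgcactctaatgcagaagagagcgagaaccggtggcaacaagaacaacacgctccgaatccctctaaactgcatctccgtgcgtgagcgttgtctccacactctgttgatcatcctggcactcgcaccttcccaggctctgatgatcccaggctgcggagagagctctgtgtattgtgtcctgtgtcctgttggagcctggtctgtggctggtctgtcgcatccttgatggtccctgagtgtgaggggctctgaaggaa
*Nfatc2*, *mdx* IKKβf/f, chr2:168399041-168399340: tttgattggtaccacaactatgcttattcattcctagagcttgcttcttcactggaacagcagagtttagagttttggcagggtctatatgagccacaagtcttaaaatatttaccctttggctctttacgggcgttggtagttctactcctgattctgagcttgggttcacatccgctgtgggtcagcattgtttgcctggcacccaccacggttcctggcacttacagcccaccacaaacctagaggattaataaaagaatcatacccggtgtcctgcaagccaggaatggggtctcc

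In *Rcan1* the *mdx* IKKβf/f stretch was 58.7% G and C with 2 CpG and 1 match to the NFAT core, and the *mdx* HRTΔIKKβ stretch was 53.3% with 11 CpG and no match in these 300 bases. The *Nfatc2* stretch had 47.3%, 5 CpG and no match. The stretch of *Rcan1* richest in CpG was thus that listed in *mdx* HRTΔIKKβ.

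*Rcan1* (ENSMUSG00000022951.9) is transcribed from the minus strand (chromosome 16, 92392198 to 92466391), with 74.2 kb of gene body and a window of 94.2 kb. It held 1 region in each genotype. The *mdx* IKKβf/f region (chr16:92463719-92464219) lay in intron 1, 2.42 kb into the gene from the upstream start site. Its 31 ChIP tags made 5.36 normalized tags, that is tags per 10000000 of the library (exact Poisson 95% interval 3.64 to 7.61). The *mdx* HRTΔIKKβ region (chr16:92449406-92449906) lay farther into intron 1, at 16.7 kb, with 32 ChIP tags or 5.12 normalized tags (3.5 to 7.23). The normalized tags of each region thus lay within the interval of the other. The regions are different places, and each was listed only because it passed the threshold, so that this does not compare the genotypes.

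The regions of *Rcan1* were 14.3 kb apart, and neither genotype had a region near the internal start site. That start, of the short transcript of 8.12 kb, was 63.6 kb downstream of the *mdx* IKKβf/f region and 49.3 kb downstream of the *mdx* HRTΔIKKβ region. Fold over input rested on 5 input tags in *mdx* IKKβf/f (4.27-fold, exact 95% interval 1.65 to 14.1) and on 4 in *mdx* HRTΔIKKβ (4.58-fold, 1.62 to 17.8). Both values were close to the 4-fold that a region needed to be listed. A second *mdx* HRTΔIKKβ region (chr16:92486468-92486968) had its centre 0.327 kb beyond the upstream edge of the window, with 5.28 normalized tags and 6.29-fold over input, and was not counted.

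Chromosome 16 held 0.445 regions per 100 kb in *mdx* IKKβf/f, and 0.853 in the case of *mdx* HRTΔIKKβ. By window length alone *Rcan1* would thus hold 0.42 and 0.804 regions. The listed regions were 2.38 times this in *mdx* IKKβf/f (exact Poisson 95% interval 0.0603 to 13.3) and 1.24 times in *mdx* HRTΔIKKβ (0.0315 to 6.93). Exactly 1 region in each list was found in 4.75% of protein-coding genes, which were not matched to *Rcan1* in length. The window of *Rcan1* was 49.2% G and C, where the chromosome as a whole was 40.9%. With the expected number taken instead from sequence of the same GC content over the autosomes, which was chosen after seeing the data, it rose to 1.05 and 1.93 regions and the ratios became 0.956 (0.0242 to 5.32) and 0.517 (0.0131 to 2.88).

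**Figure D1:**
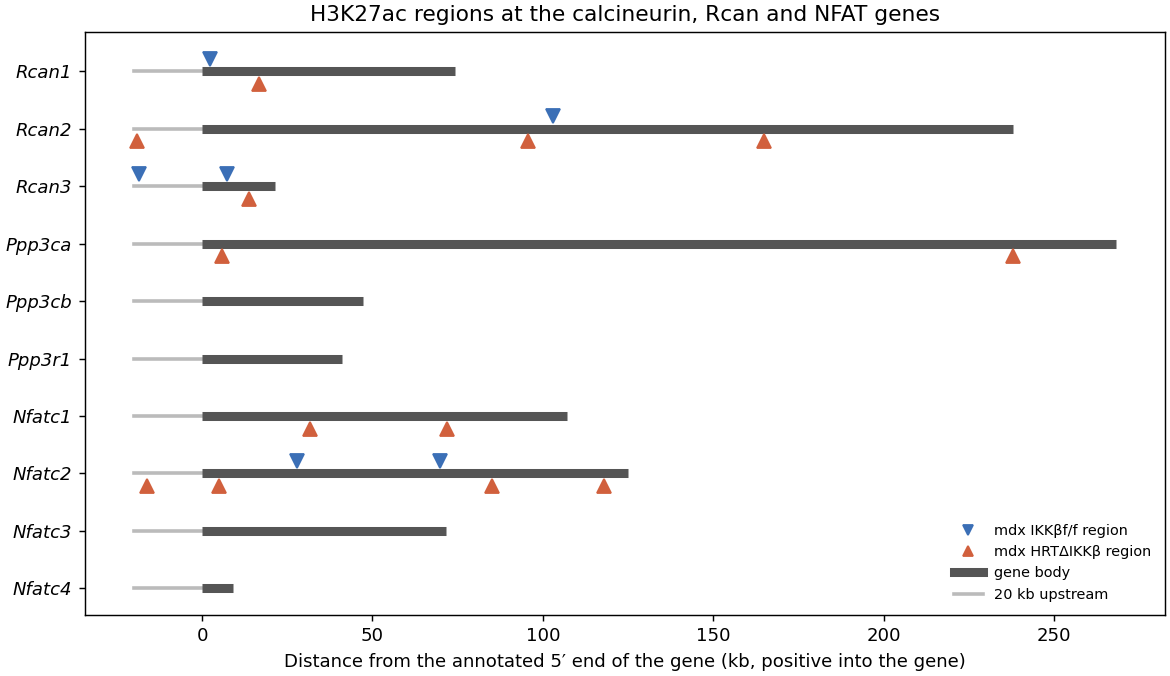
Position of each H3K27ac region in the 10 genes, as the distance in kb from the annotated 5′ end of the gene (positive into the gene). Dark bars are gene bodies, light bars the 20 kb upstream, blue triangles above the bar the 6 *mdx* IKKβf/f regions and red triangles below it the 13 *mdx* HRTΔIKKβ regions; no blue and red triangle mark the same place, and 4 genes carry none.

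The other inhibitors of calcineurin differed from each other in where their regions lay. *Rcan2* (ENSMUSG00000039601.8, chromosome 17, 43938800 to 44176465), expressed in heart and brain and much longer than *Rcan1*, held 1 region in *mdx* IKKβf/f, and 3 in the case of *mdx* HRTΔIKKβ. The *mdx* IKKβf/f region lay in intron 2 at 103 kb from the 5′ end, with 6.05 normalized tags. Those of *mdx* HRTΔIKKβ lay 19.1 kb upstream (4.48 normalized tags), and in intron 2 at 95.7 kb (4.8) and 165 kb (4.96). Its window of 258 kb would hold 1.32 and 2.54 regions by length, so that both counts were near the number expected (ratios of 0.759 and 1.18).

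*Rcan3* (ENSMUSG00000059713.6, chromosome 4, 134968223 to 134989768) was the only one of the 10 genes with more regions in *mdx* IKKβf/f than in *mdx* HRTΔIKKβ, with 2 against 1. In *mdx* IKKβf/f a region in intron 1 (5.36 normalized tags) lay 1.26 kb from an annotated start site of *Rcan3* itself. The other lay 18.6 kb upstream (5.19 normalized tags, 10.33-fold over 2 input tags), inside the neighbouring gene *Nipal3* and 2.87 kb from its start site, so that it cannot be assigned to *Rcan3* from its position. The *mdx* HRTΔIKKβ region lay in intron 3 (5.28 normalized tags). By length the window of 41.5 kb would hold 0.234 and 0.43 regions. The ratio in *mdx* IKKβf/f was 8.53 (exact Poisson 95% interval 1.03 to 30.8) and in *mdx* HRTΔIKKβ 2.33 (0.0589 to 13). Of the 20 gene counts (10 genes in each list) that in *mdx* IKKβf/f was the only one whose interval lay above 1. With GC content taken into account 0.387 regions were expected and the interval included 1 (ratio 5.16, 0.625 to 18.6). Without the region inside *Nipal3*, which was left out after seeing the data, *Rcan3* held 1 region in each genotype and the ratio in *mdx* IKKβf/f was 4.27 (0.108 to 23.8).

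Of the 3 genes of calcineurin itself among the 10, a single one held regions, and only in *mdx* HRTΔIKKβ. *Ppp3ca*, which encodes a catalytic subunit (Aα), is the longest of the 10 genes (ENSMUSG00000028161.9, chromosome 3, 136333088 to 136600691). It held none in *mdx* IKKβf/f, where 1.25 were expected by length and the nearest lay 351 kb outside the window. In *mdx* HRTΔIKKβ it held 2, where 2.21 were expected, in intron 1 at 5.79 kb (4.48 normalized tags) and in intron 10 at 238 kb (5.6). Both lay about 5 kb from an annotated start of a *Ppp3ca* transcript (5.08 and 5.15 kb). Each was only just listed. The intron 1 region had a peak score from the caller of 30, the lowest in the list, and rested on 2 input tags. The intron 10 region was 4-fold over input, the least that a region needed. Windows of *mdx* IKKβf/f below its threshold are not listed, so that its signal at these places is not known.

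*Ppp3cb*, for the catalytic subunit Aβ that is needed for hypertrophic growth of the mouse heart, and *Ppp3r1*, the regulatory subunit that binds calcium, held no region in either list (ENSMUSG00000021816.4, chromosome 14, 21318586 to 21365795, and ENSMUSG00000033953.10, chromosome 11, 17059266 to 17100378). By length 0.301 and 0.362 were expected in *mdx* IKKβf/f and 0.538 and 0.681 in *mdx* HRTΔIKKβ. A count of 0 allows up to 3 regions, so that at windows of 67.2 and 61.1 kb the lists could not have shown a deficit. The nearest regions of *mdx* HRTΔIKKβ lay 43.7 kb outside the window of *Ppp3cb* and 33.2 kb outside that of *Ppp3r1*, and those of *mdx* IKKβf/f 194 and 76.2 kb outside. The 3 genes of calcineurin together held 0 regions against 1.91 expected in *mdx* IKKβf/f and 2 against 3.43 in *mdx* HRTΔIKKβ (ratio 0.583, 0.0705 to 2.1).

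Among the NFAT factors, *Nfatc2* held most regions. *Nfatc2* (ENSMUSG00000027544.9, chromosome 2, 168301910 to 168427157) had 2 regions in *mdx* IKKβf/f, and 4 in the case of *mdx* HRTΔIKKβ, against 0.791 and 1.46 expected by length. In *mdx* IKKβf/f they lay in intron 1 (4.84 normalized tags) and intron 5 (6.22). In *mdx* HRTΔIKKβ they lay 16.2 kb upstream (5.12), in intron 1 at 5 kb (4.8), in intron 6 (4.8) and in intron 10 (5.12). The ratios of listed to expected were 2.53 (0.306 to 9.13) and 2.75 (0.748 to 7.03). Its window had the highest GC content of the 10, at 51.6%, and from sequence of the same GC content 1.97 and 3.57 regions were expected, close to the 2 and 4 listed.

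The *Nfatc2* region in intron 1 of *mdx* IKKβf/f (chr2:168398940-168399440) had the highest fold over input of all 19, at 19.27. It rested on 1 input tag, with an exact 95% interval of 3.19 to 789, and its 28 ChIP tags were among the lowest. The intron 5 region of the same genotype had 36 ChIP tags and 6 input tags and was 4.13-fold over input. All 6 of the 19 regions at 8-fold or more had at most 2 input tags, and the other regions had 4 or more. Of the whole lists, 14.9% (*mdx* IKKβf/f) and 20.7% (*mdx* HRTΔIKKβ) of regions were at 8-fold or more.

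*Nfatc1*, required for the heart valves during development (ENSMUSG00000033016.9, chromosome 18, 80802944 to 80909810), held regions in *mdx* HRTΔIKKβ only, 2 against 1.01 expected by length and 2.89 by GC content. They lay in intron 3 and intron 8, with 7.85 and 6.88 normalized tags (49 and 43 ChIP tags), the highest of the 19 regions. The intron 3 region was the only one wider than a single window, at 653 bp, so that its tags were summed over a longer stretch. The peak scores that the caller gave the 2 regions were 39 and 43, at the 90.3 and 96.4 percentiles of the *mdx* HRTΔIKKβ list. The intron 5 region of *Nfatc2* from the shallower *mdx* IKKβf/f library had a score of 37. *mdx* IKKβf/f had no region in *Nfatc1*, where 0.524 were expected. Its nearest was 29.3 kb beyond the upstream edge of the window, with 7.43 normalized tags. Windows below the calling threshold are not in the lists, so that the signal of *mdx* IKKβf/f under the *Nfatc1* regions of *mdx* HRTΔIKKβ is not known.

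*Nfatc3* and *Nfatc4*, both studied in hypertrophic growth of the adult heart, held no region in either list (ENSMUSG00000031902.8, chromosome 8, 108582740 to 108654437, and ENSMUSG00000023411.5, chromosome 14, 56443632 to 56452780). For *Nfatc3* 0.487 and 0.855 were expected by length, and for *Nfatc4*, the shortest gene with 9.15 kb, 0.13 and 0.233. A region of *mdx* IKKβf/f lay 3.3 kb beyond the 3′ end of *Nfatc3* (6.05 normalized tags), while the nearest of *mdx* HRTΔIKKβ was 30.8 kb away. For *Nfatc4* the nearest lay 16.7 kb beyond the window in *mdx* HRTΔIKKβ and 161 kb in *mdx* IKKβf/f.

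**Figure D2:**
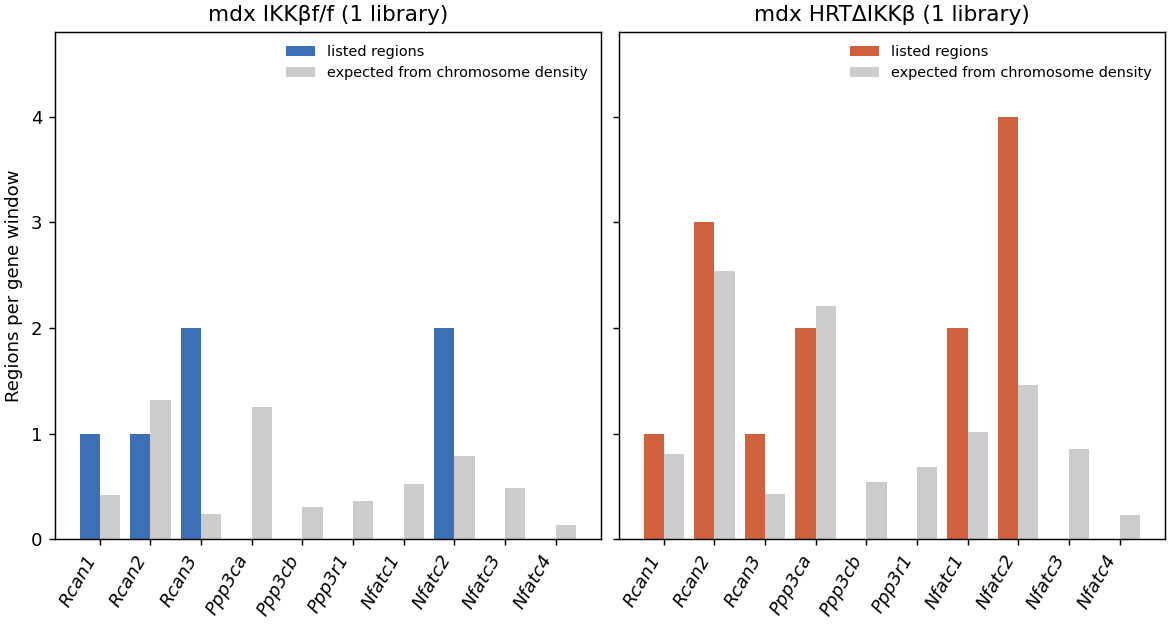
Number of listed regions in the window of each gene (coloured bars) beside the number expected from window length and the density of regions on its chromosome (grey bars), with 1 library in each panel. *Nfatc2* has the largest count in *mdx* HRTΔIKKβ, 4 against 1.46 expected, and *Ppp3cb*, *Ppp3r1*, *Nfatc3* and *Nfatc4* have none in either panel.

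Over the 10 genes, the number of regions was close to what their length and chromosomes predict. In *mdx* IKKβf/f 6 regions were listed and 5.82 expected (ratio 1.03, exact Poisson 95% interval 0.378 to 2.24). In *mdx* HRTΔIKKβ 13 were listed and 10.8 expected (1.21, 0.643 to 2.07). The windows of all protein-coding genes on the autosomes gave ratios of 1.07 and 1.11. Taking GC content into account lowered the ratios of the 10 genes below 1, to 0.694 (0.255 to 1.51) and 0.822 (0.438 to 1.41).

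At least 1 region was found in 4 of the 10 genes in *mdx* IKKβf/f and in 6 in *mdx* HRTΔIKKβ. The shares of all protein-coding genes were 22.7% and 36.4%, but the 10 genes are long, with a median window of 92.9 kb against 35.5 kb. At an even density over each chromosome, 4.02 and 5.81 of them would hold a region. The same 4 genes that held a region in *mdx* IKKβf/f (*Rcan1*, *Rcan2*, *Rcan3* and *Nfatc2*) also held one in *mdx* HRTΔIKKβ, where 13.3% of protein-coding genes had a region in both lists, and 4 genes held none in either list, where 54.2% did. More regions than expected were listed for 3 of the 10 genes in *mdx* IKKβf/f, and 5 in the case of *mdx* HRTΔIKKβ, beside 21.0% and 32.1% of protein-coding genes. At the calling thresholds of the 2 lists, which differ, *Rcan2*, *Ppp3ca*, *Nfatc1* and *Nfatc2* had more regions in *mdx* HRTΔIKKβ than in *mdx* IKKβf/f, beside 28.6% of protein-coding genes. The shares of protein-coding genes in this paragraph were not matched to the longer windows of the 10 genes.

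Of the 19 regions 13 came from *mdx* HRTΔIKKβ (68.4%, exact Clopper-Pearson 95% interval 43.4% to 87.4%). In the whole lists the share was 64.6%, which lies inside this interval. The excess of *mdx* HRTΔIKKβ regions at these genes, 2.17 times the *mdx* IKKβf/f number, was thus not distinguishable from the ratio of 1.83 between the lists. The ratio between the lists depends on the calling threshold. With *mdx* HRTΔIKKβ regions kept from the same multiple of expected tags as in *mdx* IKKβf/f, 13905 were left (1.11 times the other list, or 52.5% of both). The 10 genes then held 9 of them, 60% of their regions (exact 95% interval 32.3% to 83.7%). Regions with a peak score of at least 32 were kept. The *Nfatc2* regions in intron 6 (score 31) and intron 1 (30) dropped out, so that *Nfatc2* no longer had more regions in *mdx* HRTΔIKKβ. *Rcan2* and *Ppp3ca* also lost regions but, like *Nfatc1*, still had more. In the lists as called, the *mdx* HRTΔIKKβ share for *Rcan1* alone was 1 of 2, which allows 1.26% to 98.7%. For the 9 other genes together it was 12 of 17 (70.6%, 44% to 89.7%).

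Whether *Rcan1* stands apart from the rest of the pathway could not be told from these lists. Its 1 region in each allows ratios of 0.0603 to 13.3 in *mdx* IKKβf/f and 0.0315 to 6.93 in *mdx* HRTΔIKKβ. The 9 other genes held 5 regions against 5.4 expected in *mdx* IKKβf/f (ratio 0.926, 0.301 to 2.16) and 12 against 9.96 in *mdx* HRTΔIKKβ (1.2, 0.622 to 2.1). These intervals lay inside those of *Rcan1*, which rest on 1 region each. With GC content taken into account the ratios of the 9 genes were 0.658 (0.214 to 1.54) and 0.864 (0.447 to 1.51), and again lay inside the intervals of *Rcan1*. By family, the 3 Rcan genes held 4 and 5 regions (ratios 2.03 and 1.32), the 3 calcineurin genes 0 and 2, and the 4 NFAT genes 2 and 6 (1.03 and 1.69, 0.125 to 3.74 and 0.619 to 3.67). With GC content taken into account the ratios of the Rcan genes were 1.42 (0.386 to 3.63) and 0.954 (0.31 to 2.23), and those of the NFAT genes fell below 1, to 0.468 (0.0567 to 1.69) and 0.773 (0.284 to 1.68).

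**Figure D3:**
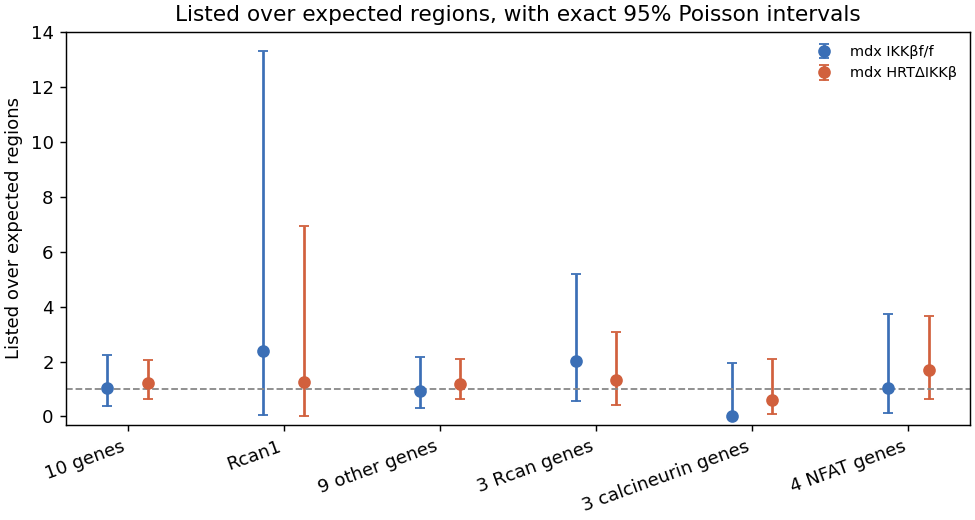
Listed over expected regions for all 10 genes, for *Rcan1*, for the 9 other genes and for the 3 families, with exact 95% Poisson intervals (blue *mdx* IKKβf/f, red *mdx* HRTΔIKKβ, 1 library each). The dashed line marks the density of the chromosome, a ratio of 1, and every interval spans it.

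None of the 19 regions overlapped a region of the other genotype, and none came within 1 kb of one. Over the whole lists the share of regions that overlapped the other list was 3.19% for *mdx* IKKβf/f hearts and 1.74% for *mdx* HRTΔIKKβ hearts, and at such shares few or no overlaps would be met among 6 and 13 regions. The closest regions of different genotypes were 6.4 kb apart, in *Rcan3*. Those of *Rcan2* were 7.67 kb apart.

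All regions lay in introns (16) or upstream (3), and none was centred on an exon. In *mdx* IKKβf/f 3 of 6 were centred within 3 kb of an annotated start site of any gene, that of *Rcan1* and both of *Rcan3*, while in *mdx* HRTΔIKKβ 0 of 13 were. In the whole lists the shares were 12.0% and 12.2%.

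The regions were as weak as most in the lists. Their ChIP signal had a median of 5.36 normalized tags in *mdx* IKKβf/f (range 4.84 to 6.22) and 5.12 in *mdx* HRTΔIKKβ (4.48 to 7.85), the same as the medians of the whole lists. Peak scores, the caller's own value for the strength of a region, ran from 30 to 37 in *mdx* IKKβf/f and from 30 to 43 in *mdx* HRTΔIKKβ. They are not the ChIP tags given above, as the region upstream of *Rcan2* had a score of 32 with 28 ChIP tags. Scores no more than 5 above the threshold were found in 4 of the 6 regions and in 11 of the 13, beside 79.7% and 77.7% of the whole lists. The median fold over input was 5.08 and 4.58, beside 5.16 and 5 in the lists, and it rested on 1 to 6 input tags in *mdx* IKKβf/f and 2 to 6 in *mdx* HRTΔIKKβ.

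**Figure D4:**
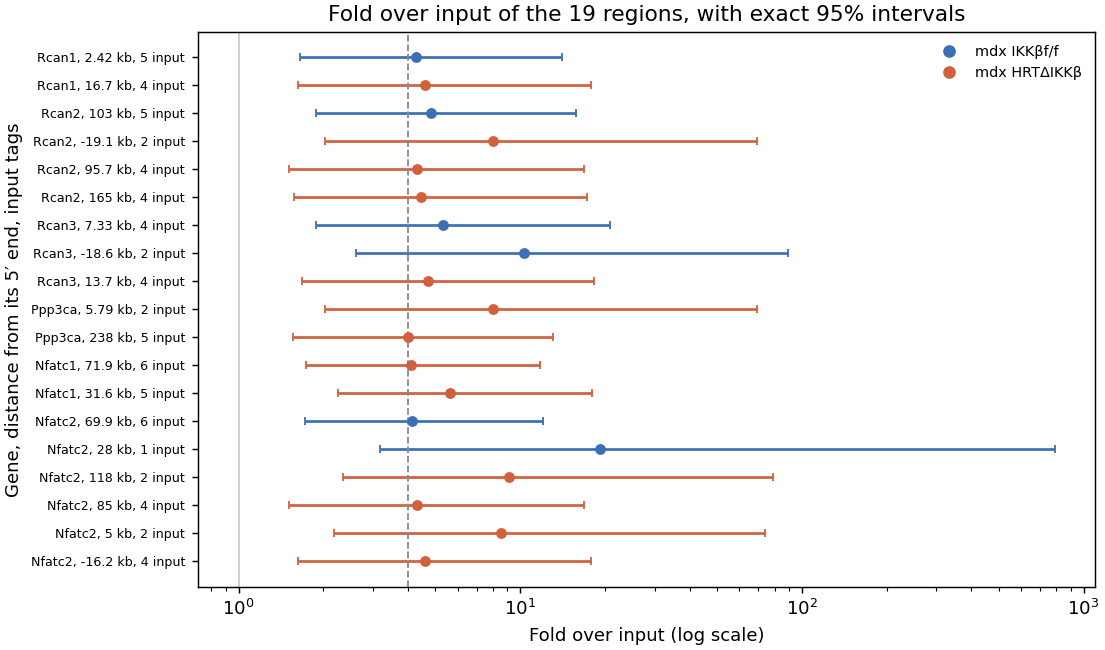
Fold over input of the 19 regions on a log scale, with exact 95% intervals from the ChIP and input tags of each (blue *mdx* IKKβf/f, red *mdx* HRTΔIKKβ); labels give the gene, the distance from its 5′ end in kb and the input tags. The dashed line marks the 4-fold required for listing, and the interval of each region reaches below it.

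The median GC content of the 500-bp regions of these genes was 54.1% for the 6 of *mdx* IKKβf/f (range 47.8% to 58.8%) and 50.9% for the 12 of *mdx* HRTΔIKKβ (40.6% to 54.8%), beside 47.6% for all 500-bp regions of either list. All 6 of *mdx* IKKβf/f lay above this value, while 7 of the 12 of *mdx* HRTΔIKKβ lay above it and 5 below. The regions of *Ppp3ca* were the poorest in G and C, at 41.6% and 40.6%. The NFAT core GGAAA, searched on both strands, was found in 5 of 6 and in 11 of 12 regions. It was also found in 78.5% and 78% of all regions of this width, as a pattern of 5 letters is met often in 500 bases. The NF-κB pattern GGGNNTTTCC, which contains a match to the NFAT core, was found in none of the 19 regions and in 2.02% and 1.95% of all.

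The other genes of the pathway carried fewer regions than their length predicts, in both lists, at the window and threshold used here. This list of 34 genes took in the calcineurin and NFAT genes not among the 10, none of which held a region in either list. It also took in calmodulins, anchoring and inhibitory proteins of calcineurin, the kinases that put phosphate back on NFAT, partner transcription factors, calcium entry channels and target genes. Of the 34 genes 5 held a region in *mdx* IKKβf/f, where 10.1 would at an even density, and 9 in *mdx* HRTΔIKKβ, where 14.9 would. Of all protein-coding genes 22.7% and 36.4% did. The 34 genes held 5 regions against 14.3 expected (ratio 0.349, exact Poisson 95% interval 0.113 to 0.815) and 13 against 25.9 (0.502, 0.267 to 0.859). With GC content taken into account the ratios were 0.307 (0.0997 to 0.716) and 0.437 (0.233 to 0.748). The intervals of the 10 genes, 0.378 to 2.24 and 0.643 to 2.07, overlapped these. The ratios of the 34 genes were not recomputed with other windows or thresholds. With gene bodies alone 2 and 8 of them held a region, and with 50 kb upstream 8 and 18 did.

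*Homer2*, a scaffold protein that binds NFAT, had 1 region in *mdx* IKKβf/f (5.53 normalized tags) and 3 in *mdx* HRTΔIKKβ (5.6 to 7.36), one of these 2.94 kb from its start site. Its relative *Homer3* had a region 2.01 kb from its start in *mdx* IKKβf/f (7.78 normalized tags) and none in *mdx* HRTΔIKKβ. *Myh7*, the slow myosin heavy chain that returns in the failing mouse heart, had a region 1.11 kb from a start site in *mdx* IKKβf/f (6.91 normalized tags) and one 3.35 kb away in *mdx* HRTΔIKKβ (4.96). In *mdx* HRTΔIKKβ alone, *Gsk3b*, a kinase that sends NFAT out of the nucleus, had a region 1.7 kb from its start (5.92 normalized tags), and *Trpc6*, a calcium entry channel, had 2 regions (4.96 to 5.44), the nearer 0.241 kb from a start site.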

How the data were processed

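H3K27ac ChIP-seq of *mdx* hearts comprised 1 ChIP library for each of 2 genotypes, and the 2 input libraries were used only through the region lists. Per the paper's methods and the file headers, the authors mapped uniquely aligned reads to mm9 with Bowtie2 and called regions with HOMER in histone mode (versions not given in the sources used here): windows of 500 bp, joined within 1000 bp, at least 4-fold over input at a Poisson p of 1e-04. The deposited values were signal (normalized and raw tag coverage), peak scores, fold ratios over input and p-values. At most 2 tags per position were kept in the *mdx* IKKβf/f list and 3 in *mdx* HRTΔIKKβ, and fragment lengths were 182 and 196 bp.

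The members and gene lists were chosen with earlier results of these data known. Regions were assigned by their centre to GENCODE vM1 windows. Expected counts were window length times the density of the same list on the same chromosome, and alternatively the density in GC bins. Intervals were exact (Poisson, Clopper-Pearson, or conditional binomial on ChIP and input tags), at 95%, with SciPy 1.17.1, pandas 2.3.3 and NumPy 2.4.6 under Python 3.11.15, and figures were drawn with matplotlib 3.10.9. They cover counting error only, and not the selection of regions by a threshold. The calculations were tested on simulated data. A count of 0 was taken to allow 3. Of the other pathway genes, those with 3 or more regions over both lists or a region within 3 kb of an own start site were named. Alternatives were the window, the fold required, the expected density, the calling threshold and the stretch searched for motifs.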

Additional observations from a re-analysis of the deposited data

How the results depend on the processing

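Of 116 values recomputed under alternative settings, 94 stayed within their interval or within 1.5 times the original count, and 22 moved further. The intervals are wide, so that staying within them says little. The change from 1.03 to 0.694 for the 10 genes in *mdx* IKKβf/f with GC content taken into account was among the 94. With gene bodies alone, 2 other pathway genes held a region in *mdx* IKKβf/f. With 50 kb upstream, the 10 genes held 10 regions in *mdx* IKKβf/f, *Rcan1* held 2 in *mdx* HRTΔIKKβ, and 8 and 18 other pathway genes held one. At 5-fold or more over input, 3 regions in 2 of the 10 genes were left in *mdx* IKKβf/f and 5 regions in *mdx* HRTΔIKKβ, with 0 and 0 at *Rcan1*. At 8-fold or more, 2 regions in 2 genes and 4 regions in 3 genes were left, again 0 and 0 at *Rcan1*, with 2 and 3 other pathway genes. Of the whole lists, 14.9% of the *mdx* IKKβf/f regions and 20.7% of the *mdx* HRTΔIKKβ regions were at 8-fold or more. Listed over expected at 8-fold or more was 2.38 in *mdx* IKKβf/f for the 10 genes and 2.58 for the 9 others. In *mdx* HRTΔIKKβ it was 1.74 and 1.88. These ratios rest on 2 and 4 regions, and no interval was computed for them. In the central 200 bp, 3 of the 12 regions of *mdx* HRTΔIKKβ held the NFAT core, beside 44.8% of all 500-bp regions of that list. In *mdx* IKKβf/f 4 of the 6 did, beside 46.4%. Beyond the setting's own construction (a longer or shorter window, fewer regions), the cause of these shifts was not tested. With *mdx* HRTΔIKKβ regions kept only from the same multiple of expected tags as in *mdx* IKKβf/f, the 10 genes held 9 of them (60% of their regions, where the whole lists gave 52.5%). Without the region inside *Nipal3*, *Rcan3* held 1 in *mdx* IKKβf/f. With GC content taken into account, the ratios of the 10 genes went from above 1 to 0.694 and 0.822. No paired analysis was possible because each genotype had 1 ChIP library. Depth limits the lists to windows at about 2 times the expected tags, so that a region missing from a list is not a measured absence.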
